A study of Oncorhynchus mykiss with 6 samples.

Results

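The miR-148 and miR-152 family took 9 of the 1427 small RNA rows in a miRNA table made from liver of rainbow trout (Oncorhynchus mykiss), juveniles of wild-type genotype with the strain label Walbaum. Its members were all rows named miR-148 or miR-152, with any letter, arm, length variant or fish prefix. Fish deprived of food for 4 days gave 3 libraries, which the titles number 3, 4 and 5, and control fish gave 3 libraries, numbered 3, 4 and 6. The comparison asked whether a short fast changes the miRNAs of the liver. All fish shared the strain, genotype and life stage. Whether each library stands for a single fish is not in the labels, so p-values here reflect differences between libraries, which may be technical.

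MicroRNAs are short RNAs that guide Argonaute proteins to messenger RNAs, mainly through the seed, bases 2 to 8 counted from the 5′ end. In mammals miR-148a, miR-148b and miR-152 share a seed and are cut from the 3′ arm of their hairpins, while the 5′ arm yields a less abundant partner. Mammalian miR-148a is abundant in hepatocytes and is known for targeting the transcripts of the LDL receptor, of the cholesterol exporter ABCA1 and of the DNA methyltransferase DNMT1. These roles are known from mammals, and no target was measured in the trout.

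The sequences of the 5 rows that could be tested, and of a rare miR-152 row, are shown to make clear how little separates them. Capitals mark the seed, and T stands for U as in the table.
dre-miR-148: tCAGTGCAttacagaactttgt
ola-miR-148_R+1: tCAGTGCAttacagaacttta
fru-miR-152: tCAGTGCAtaacagaactttgt
dre-miR-152_R-1: tCAGTGCAtgacagaactttg
ssa-miR-148a-5p: aAGTTCTGtgatacacttcgact
ssa-miR-152-5p_L-1: aAGTTCTGtgatacacttaggct
Positions are counted from 1 at the 5′ end. The most abundant rows of miR-148 and miR-152, each of 22 nt, differed at a single base just past the seed, T10A from dre-miR-148 to fru-miR-152. The row dre-miR-152_R-1 differed from fru-miR-152 by A10G and lacked its last base. The variant ola-miR-148_R+1 was identical to dre-miR-148 over its first 20 bases and then ended in A where dre-miR-148 continued with GT. The partner strands ssa-miR-148a-5p and ssa-miR-152-5p_L-1, each of 23 nt, differed by C19A and A21G and so also shared a seed. Bases 1 to 9 of each 5p row could pair without a gap or mismatch with the 3′ arm of the same number. The arm of the rows with no arm in their name was taken to be 3p because the labelled rows of the same number were 5p. Of the 7 rows in the table with the seed of miR-148, 6 were family rows and the other was a predicted small RNA. The positions of the hairpin genes in the trout genome were not analysed here. Nor was it analysed whether the final A of ola-miR-148_R+1 is encoded there, so this row and dre-miR-148 may or may not share a hairpin.

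Sequencing depth and the state of the libraries bear on all values that follow. The table held 737686, 1432592 and 1191404 counts in fasted replicates 3, 4 and 5 and 4203708, 982844 and 4190377 counts in control replicates 3, 4 and 6. It covered 15.1, 47.8 and 34.9% of the mappable reads in the fasted libraries and 45.0, 56.4 and 61.0% in the controls. Fasted replicate 3, with the smallest cover, also held the most counts in the rows named mir-7641, at 1.78% of its table against 0.0112 to 0.326% in the other 5 libraries. The hepatocyte markers miR-122, miR-192 and miR-194 all had rows and summed to between 37.5 and 44.2% of counts in fasted and between 36.6 and 41.8% in control libraries. Of the erythrocyte markers, miR-486 had no row in the table while miR-144 and miR-451 did, and their sum was 0.349, 0.114 and 0.898% in fasted replicates 3, 4 and 5 against 0.172 to 0.358% in controls. All 4 leucocyte markers and all 5 endothelial and stromal markers had rows. The leucocyte sum was 0.280, 0.0714 and 0.269% in fasted replicates 3, 4 and 5 and 0.0825 to 0.179% in controls. The endothelial and stromal sum was 5.67 to 6.64% in fasted and 5.17 to 6.89% in control libraries.

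The family was among the larger parts of the liver's miRNA pool, and its size split the fasted libraries. It made up 2.17, 1.65 and 5.81% of the table's counts in fasted replicates 3, 4 and 5, against 5.05, 3.66 and 3.19% in control replicates 3, 4 and 6. As a share of table counts, fasted replicates 3 and 4 lay below every control library, while fasted replicate 5 lay above all 3. The place of fasted replicate 5 depended on the scaling, as the scaled values below show. The 95% Wilson interval was 1.63 to 1.67% in the lowest library, fasted replicate 4, and 5.77 to 5.86% in the highest, fasted replicate 5. Such intervals cover counting error only, and the libraries of one group differed by far more. The means were 3.21% ± 2.27 in fasted and 3.97% ± 0.969 in control liver (SD, n = 3 each), a difference of -0.76 percentage points that was smaller than the spread between libraries. Without fasted replicate 5 the difference was -2.06 percentage points, without fasted replicate 4 it was 0.022, and without fasted replicate 3 or control replicate 3 it was -0.24 or -0.22. In bulk liver, fewer cells of a type and less RNA per cell cannot be told apart. Fasted replicate 5 also had the highest erythrocyte sum, and fasted replicate 3 the most mir-7641 counts; the part of either in these shares was not tested.

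**Figure D1:**
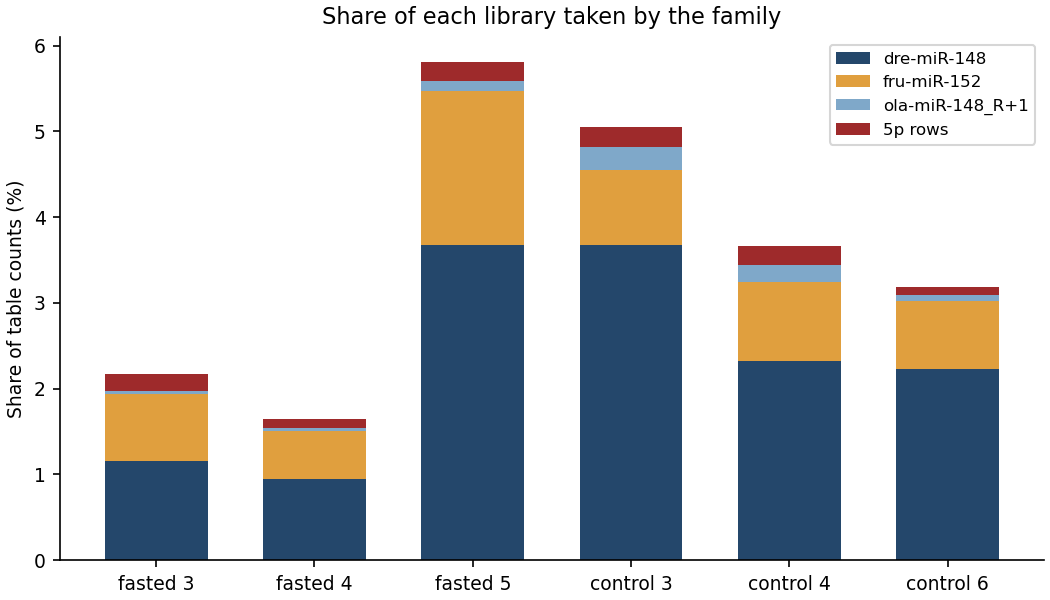
Stacked bars give the percent of each library's table counts held by dre-miR-148, fru-miR-152, the variant ola-miR-148_R+1 and the 5p rows, with fasted libraries on the left and control libraries on the right. The bars of fasted replicates 3 and 4 reach 2.17 and 1.65%, below the lowest control library at 3.19%, and that of fasted replicate 5 reaches 5.81%.

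Nearly all of the family's counts came from the 3′ arm, and most from miR-148. The 3p rows held 91.2 to 96.1% of the family's counts in fasted and 93.9 to 96.8% in control libraries. The row dre-miR-148 alone ranked 14, 12 and 5 among the 1427 rows in fasted replicates 3, 4 and 5, and 4, 7 and 6 in control replicates 3, 4 and 6. The row fru-miR-152 ranked between 11 and 18 in fasted and between 14 and 16 in control libraries. The 5p rows of miR-148 and miR-152 ranked between 44 and 130 in fasted and between 33 and 125 in control libraries.

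Of the 9 rows, 5 had enough counts to test and 4 did not. The 4 rare rows were dre-miR-152_R-1, tni-miR-152_R+2, ssa-miR-148b-5p, which differs from ssa-miR-148a-5p by T7G inside the seed, and dre-miR-152_R-1_1ss1TC. They held between 0 and 12.7 counts per library, and 8 of their 24 values were 0. A count of 0 allows a share of up to 4.07e-04% in the shallowest library, fasted replicate 3, and 7.14e-05% in the deepest, control replicate 3. These rows were compared between groups only in the fit without a count filter, described below, where none of them was called.

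No family row passed the test between fasted and control liver. With edgeR's quasi-likelihood test, 0 of the 5 tested rows had a Benjamini-Hochberg adjusted p under 0.05 over the 309 rows tested, where 0% of all rows were called. DESeq2 and limma, with voom weights or on the normalized signal of the authors, also called 0 family rows, although DESeq2 called 1.29% of all rows. The unadjusted p was under 0.05 for 1 family row in edgeR, the variant ola-miR-148_R+1, for 1 in DESeq2 and for 2 in each limma fit. At that level 3.56% of all rows were lower in fasted liver in edgeR. Of all 309 rows, 28 reached it in DESeq2, 27 in limma with voom weights and 30 in limma on the normalized signal. Of these, 12, 14 and 13 in this order were lower in fasted liver. All 5 log2 fold changes lay below 0, as did 49.8% of those of all tested rows. Their median was -0.65, against 0.01 over all rows. The 5 rows overlap in sequence and come from hairpins of 1 family, so they are not separate observations. The groups overlapped in all 5, as they did in most of the table: in 17.5% of all rows they did not, and in 8.74% all fasted libraries lay below all controls. When libraries were scaled by their totals alone, 3 of the 5 lay below 0, since that choice raised the median of all rows by 0.58.

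The values here and after are CPM, counts relative to a common library total, after scaling by TMM, which allows for differences in library composition. The TMM factors were 1.64, 0.898 and 1.21 in fasted replicates 3, 4 and 5 and 0.882, 0.834 and 0.762 in control replicates 3, 4 and 6. On this scale the family summed to 13214, 18394 and 48134 CPM in fasted replicates 3, 4 and 5. In control replicates 3, 4 and 6 it summed to 57325, 43932 and 41901 CPM. Fasted replicate 5 thus lay within the control range here, while its share of table counts lay above all controls. The row dre-miR-148, the main mature strand, had 7085, 10543 and 30451 CPM in fasted replicates 3, 4 and 5, against 41632, 27820 and 29350 CPM in control replicates 3, 4 and 6. Fasted replicates 3 and 4 lay far below the controls and fasted replicate 5 lay among them. The means were 16026 ± 12611 CPM in fasted and 32934 ± 7571 CPM in control liver (SD, n = 3 each). The log2 fold change was -1.04 (SE 0.54, 95% interval -2.27 to 0.19; edgeR adjusted p = 0.606). Of all tested rows, 5.83% had a fold change at least as low. Without fasted replicate 5 the log2 fold change of dre-miR-148 was -1.75 (edgeR adjusted p = 0.234), and without fasted replicate 3 it was -0.62 (edgeR adjusted p = 0.898). The size of the difference thus depended on which fasted library was left out while its direction did not. Scaled by library totals alone it was -0.51 (edgeR adjusted p = 0.554). As a share of table counts, fasted replicate 5 was the highest library at 3.68%, next to 3.67% in control replicate 3.

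The row fru-miR-152, whose mature strand shares the seed of miR-148, had 4712, 6262 and 14804 CPM in fasted replicates 3, 4 and 5, against 9924, 11099 and 10286 CPM in control replicates 3, 4 and 6. Its control libraries were close together, and the fasted libraries lay to both sides of them. The means were 8593 ± 5435 CPM in fasted and 10437 ± 602 CPM in control liver (SD, n = 3 each), with a log2 fold change of -0.28 (SE 0.44, 95% interval -1.30 to 0.74; edgeR adjusted p = 0.900). The sign turned without fasted replicate 3, to 0.063, and, with scaling by library totals alone, to 0.27. Relative to the median of all rows it was -0.29 with TMM and -0.31 with the library total.

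The variant ola-miR-148_R+1, the shorter form of miR-148 that ends in A, had 247, 318 and 995 CPM in fasted replicates 3, 4 and 5, against 3119, 2323 and 910 CPM in control replicates 3, 4 and 6. The overlap came from fasted replicate 5 and control replicate 6 alone. Its log2 fold change was -2.03 (SE 0.66, 95% interval -3.54 to -0.51; edgeR adjusted p = 0.504). The interval lies below 0 because it belongs to this row taken singly, while the adjusted p accounts for the 309 rows. DESeq2 gave it an adjusted p of 0.0557. When all 1325 rows with any count were tested it was called, at -2.10 (edgeR adjusted p = 0.0025), where 0.83% of rows were called. The fold change hardly moved, but its SE was 0.47 in that fit against 0.66 with the count filter. Without the filter the SEs of the 5 family rows named here all lay between 0.45 and 0.49, against 0.36 to 0.66 with it. The call thus rests on how the spread was estimated, and the reason for the smaller SE was not tested. Of its 6 values 5 were not whole numbers, as in fru-miR-152, where the same 5 libraries had values that were not whole. Some reads of both rows had thus been divided with other sequences, and the table does not say with which. The 6 values of dre-miR-148 were all whole.

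**Figure D2:**
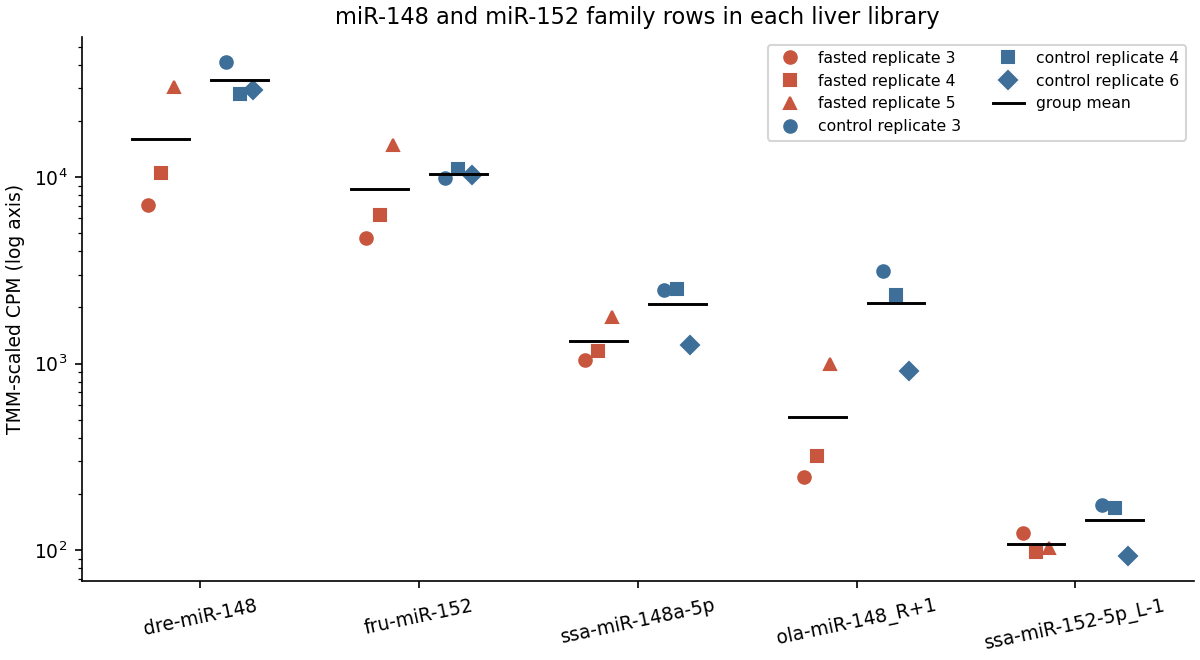
TMM-scaled CPM on a log axis for the 5 tested family rows, with fasted libraries left of control libraries in each pair, one symbol per replicate number and a bar at the group mean. In dre-miR-148, fru-miR-152 and ola-miR-148_R+1 fasted replicates 3 and 4 lie below the control libraries and fasted replicate 5 lies within or above them.

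The partner strands were lower on average in fasted liver too, and neither passed the test. Both had smaller fold changes than dre-miR-148, while that of ssa-miR-152-5p_L-1 lay lower than the -0.28 of fru-miR-152. The row ssa-miR-148a-5p had 1044, 1174 and 1773 CPM in fasted replicates 3, 4 and 5, against 2471, 2516 and 1257 CPM in control replicates 3, 4 and 6. Control replicate 6 lay among the fasted libraries. The log2 fold change was -0.65 (SE 0.40; edgeR adjusted p = 0.606), and it was -0.41 without fasted replicate 3 and -0.092 when scaled by library totals alone. The row ssa-miR-152-5p_L-1 had 124, 97.3 and 103 CPM in fasted replicates 3, 4 and 5, against 175, 167 and 92.5 CPM in control replicates 3, 4 and 6, where control replicate 6 was the lowest of all 6 libraries. Its log2 fold change was -0.42 (SE 0.36; edgeR adjusted p = 0.724), or 0.19 when scaled by library totals alone. It ranged from -0.66 without control replicate 6 to -0.24 without fasted replicate 5.

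**Figure D3:**
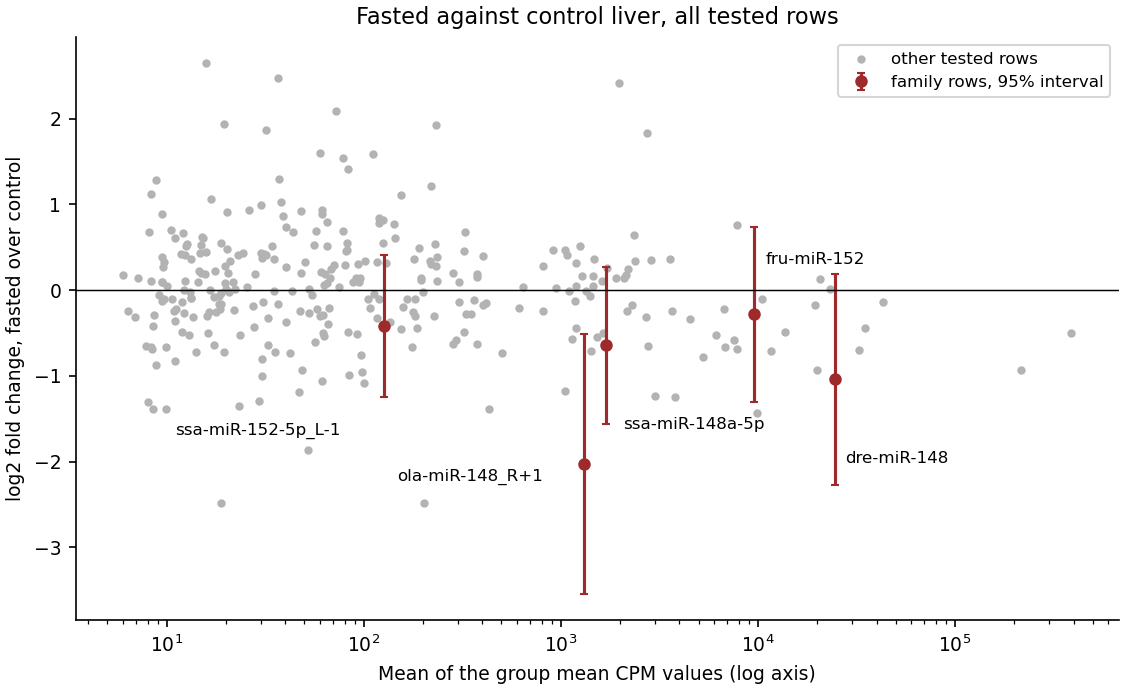
Log2 fold change (fasted over control) of all 309 tested rows against the mean of their group mean CPM values on a log axis, with the family rows in red and their 95% intervals. The family rows lie between -0.28 and -2.03, and the interval of ola-miR-148_R+1 is the one of the 5 that does not reach 0.

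The balance between miR-148 and miR-152 differed between the groups without overlap. This ratio was chosen after its values were seen and is given with no test. Both rows have 22 nt, and their ratio within a library does not depend on how libraries are scaled, though some reads of fru-miR-152 had been divided with other sequences. For each count of fru-miR-152 there were 1.50, 1.68 and 2.06 counts of dre-miR-148 in fasted replicates 3, 4 and 5, against 4.20, 2.51 and 2.85 in control replicates 3, 4 and 6. Every fasted library lay below every control library, fasted replicate 5 included, although the family's share of table counts was highest there. The mean ratio was 1.75 ± 0.282 in fasted and 3.18 ± 0.892 in control liver (SD, n = 3 each), and the mean log2 ratio differed by -0.84. Among the ratios of the 308 other tested rows to fru-miR-152, 1.95% had all fasted libraries below all controls, and 6.49% did not overlap in either direction. A two-sided exact permutation test of 3 libraries against 3 cannot give a p under 0.1. As a share of the family's counts, the miR-148 rows held 63.4, 65.4 and 69.0% in fasted replicates 3, 4 and 5, against 82.4, 74.3 and 75.2% in control replicates 3, 4 and 6. The 5p rows did not show such a split. Their ratio, ssa-miR-148a-5p over ssa-miR-152-5p_L-1, was 8.41, 12.1 and 17.2 in fasted replicates 3, 4 and 5 and 14.1, 15.0 and 13.6 in control replicates 3, 4 and 6, with the fasted libraries to both sides of the controls.

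Relative to dre-miR-148, the miR-148 end variant varied less among fasted than among control libraries. Per 100 counts of dre-miR-148 there were 3.48, 3.02 and 3.27 counts of ola-miR-148_R+1 in fasted replicates 3, 4 and 5, against 7.49, 8.35 and 3.10 in control replicates 3, 4 and 6. The 3 fasted libraries were alike, and control replicate 6 stood with them rather than with the other controls. Across the table, each tested row was paired with the most abundant tested row that had the same first 18 bases, which gave 49 pairs. Some of these pairs join different miRNAs, such as ssa-miR-148a-5p and ssa-miR-152-5p_L-1, rather than end variants of 1 miRNA. The log2 fold change of the less abundant row minus that of the more abundant ran from -0.99 to 0.74 with a median of 0.10, and lay below 0 in 20 pairs. The lowest value, -0.99, was that of ola-miR-148_R+1 and dre-miR-148; this comparison of pairs was also chosen after values were seen and has no test.

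**Figure D4:**
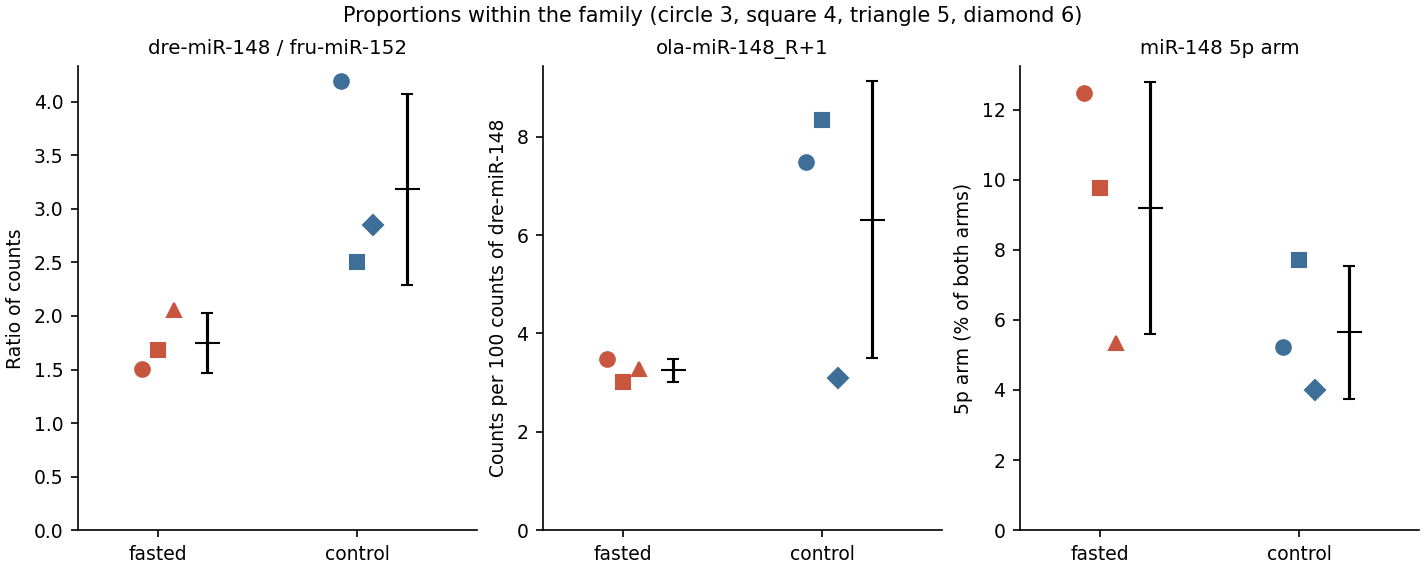
Proportions within the family by library: the count ratio of dre-miR-148 to fru-miR-152 (left), counts of ola-miR-148_R+1 per 100 of dre-miR-148 (centre) and the 5p arm as percent of both arms of miR-148 (right), fasted left of control, with mean ± SD beside the points (n = 3 each). The groups are apart in the left panel, at 1.50 to 2.06 in fasted and 2.51 to 4.20 in control libraries, and overlap in the centre and right panels.

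The balance of 5p and 3p counts was compared across the table. It can mix hairpins of the same number and does not measure the choice of strand itself. For each miRNA number, rows were summed by arm, and log2 of the 5p over the 3p CPM, with 1 CPM added to each, was tested with limma over the 46 numbers in which both arms averaged at least 10 CPM. The 5p arm of miR-148 made up 12.5, 9.75 and 5.34% of both arms in fasted replicates 3, 4 and 5, against 5.23, 7.70 and 3.99% in control replicates 3, 4 and 6. Fasted replicates 3 and 4 had the highest shares, and these are the libraries in which the 3p strand was low, while fasted replicate 5 lay within the control range. The log2 ratio was 0.73 higher in fasted liver (SE 0.45, 95% interval -0.23 to 1.68; limma adjusted p = 0.437). It was 0.44 without fasted replicate 3, 0.49 without control replicate 6 and 1.11 without fasted replicate 5, and the last had a limma adjusted p of 0.127. For miR-152 the 5p arm was 2.58, 1.53 and 0.690% in fasted replicates 3, 4 and 5 and 1.73, 1.48 and 0.894% in control replicates 3, 4 and 6, with the groups overlapping. The difference in its log2 ratio was 0.09 (SE 0.49; limma adjusted p = 0.960), and its sign turned without fasted replicate 3 (-0.36) and without control replicate 6 (-0.19). In limma 0% of the 46 numbers were called and 6 had an unadjusted p under 0.05. In all 6 libraries the 5p arm was a larger part of miR-148 than of miR-152.

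The family rows correlated across libraries to widely differing degrees. Over the 6 libraries, the log2 CPM of dre-miR-148 had a Pearson r of 0.92 with ola-miR-148_R+1, 0.90 with fru-miR-152, 0.79 with ssa-miR-148a-5p and 0.33 with ssa-miR-152-5p_L-1. The row fru-miR-152 and its own partner strand ssa-miR-152-5p_L-1 had an r of 0.09. The highest r of any pair was 0.94, between ssa-miR-148a-5p and ola-miR-148_R+1, and the tested 5p rows had 0.77 with each other. These values describe 6 libraries, and all rows share the scaling of each library.

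Outside the family, the rows with the pattern most like that of dre-miR-148 were taken from 274 mature names by Pearson's r of log2 CPM over the 6 libraries. They were ssa-miR-146d-5p, of a family known in innate immune responses (r = 0.98), dre-miR-196b_R-1, of a family encoded in the Hox clusters (0.97), dre-let-7g, of the let-7 family (0.95), the predicted row PC-5p-2680_344 (0.94) and dre-miR-146b_L+1_1ss23GT (0.93). In each of them fasted replicates 3 and 4 were the lowest libraries, a pattern that choosing rows by their correlation with dre-miR-148 favours. The row ssa-miR-146d-5p had 923, 1045 and 2102 CPM in fasted replicates 3, 4 and 5 and 2297, 1807 and 1671 CPM in control replicates 3, 4 and 6. The row dre-miR-196b_R-1 had 15.1, 22.0 and 164 CPM in fasted replicates 3, 4 and 5 and 222, 72.3 and 93.0 CPM in control replicates 3, 4 and 6. Fasted replicate 5 lay within the control range in both. With edgeR none of the 5 passed, with log2 fold changes of -0.44 to -0.95 and adjusted p-values of 0.557 to 0.789.

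Lists of other miRNAs known for hepatocytes, lipoprotein and cholesterol transcripts or DNA methylation had median log2 fold changes between -0.10 and 0.16. No joint action with the family was measured. Other hepatocyte miRNAs (miR-22, miR-101, miR-122, miR-192 and miR-194) had 22 tested rows, 0 called by edgeR and 0 at an unadjusted p under 0.05, with a median log2 fold change of -0.10 against 0.01 for all rows. miR-802 and miR-885, also on that list, had no row. The most abundant row of the list, dre-miR-122_R-1, had 257737, 416521 and 292984 CPM in fasted replicates 3, 4 and 5 and 396187, 478519 and 495248 CPM in control replicates 3, 4 and 6 (log2 fold change -0.50, SE 0.27; edgeR adjusted p = 0.606). As a share of table counts it held 42.3, 37.4 and 35.4% in fasted replicates 3, 4 and 5. In control replicates 3, 4 and 6 its share was 34.9, 39.9 and 37.7%, so the order of the libraries depended on the scaling. The list known for lipoprotein and cholesterol transcripts (miR-33, miR-27, miR-128, miR-130, miR-301, miR-144 and miR-223, with no row for miR-185) had 30 tested rows, 0 called and a median of 0.16. At an unadjusted p under 0.05, 1 of these 30 rows was higher and 3 were lower in edgeR, where 4.85% of all rows were higher and 3.56% lower. Scaled by library totals alone, 8 of the 30 were higher and 0 lower, against 56 higher and 3 lower of all 309 rows, so the direction of that count depended on the scaling. Its most abundant row, dre-miR-27b-3p_R-1, had 2084, 2631 and 2559 CPM in fasted replicates 3, 4 and 5 and 2703, 2857 and 3462 CPM in control replicates 3, 4 and 6 (log2 fold change -0.31, SE 0.30; edgeR adjusted p = 0.724). With TMM scaling all fasted libraries lay below all controls in this row, as they did in 8.74% of all rows. By library totals alone, fasted replicates 3 and 5 lay above all controls and fasted replicate 4 below them, so this separation depended on the scaling. The list known for DNA methylation and its enzymes (miR-29, miR-101 and miR-143) had 12 tested rows, 0 called, 0 at an unadjusted p under 0.05, and a median of 0.01. Its most abundant row, ccr-miR-143, had 9054, 10261 and 10925 CPM in fasted replicates 3, 4 and 5 and 12559, 10476 and 9382 CPM in control replicates 3, 4 and 6, with overlapping groups (log2 fold change -0.10, SE 0.28; edgeR adjusted p = 0.921). Scaled by library totals alone, the medians were 0.48, 0.77 and 0.51 in this order, against 0.59 for all rows. The medians also moved with single libraries. That of the hepatocyte list was 0.11 without fasted replicate 3 and 0.15 without control replicate 6. That of the lipoprotein list was 0.28 without control replicate 4 and 0.043 without control replicate 6. That of the DNA methylation list was 0.37 without fasted replicate 3 and 0.45 without control replicate 6, against -0.16 without fasted replicate 4 or control replicate 3 and -0.059 without control replicate 4.

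**Figure D5:**
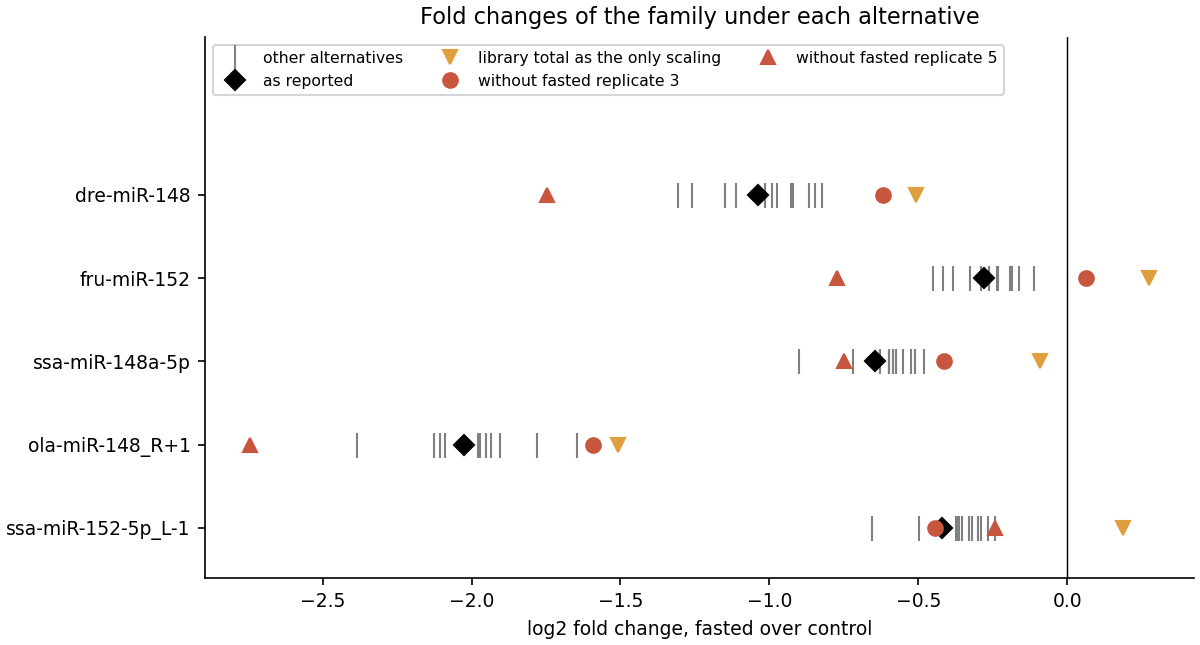
Log2 fold change (fasted over control) of the 5 tested rows as reported (black diamonds) and under the alternatives other than the fit with replicate number as a block, which gave dre-miR-148 -1.98, with the library total as scaling and the fits without fasted replicate 3 or 5 marked. That block fit compares the groups only within the replicate numbers that both groups hold. For dre-miR-148 the values drawn lie between -1.75 and -0.51, while those of fru-miR-152 and ssa-miR-152-5p_L-1 cross 0.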

How the data were processed

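Per the labels' protocols, frozen livers were extracted with Trizol and libraries were built with a TruSeq kit from total RNA; the labels describe small RNA of 15 to 50 nt. The submitters' processing notes name Bowtie 1.1.1. Neither trimmer, counting program nor build is stated there. The authors deposited whole-number counts of reads per library, expected counts per sequence (raw) and a normalized signal, which is the expected count over a library size parameter, per the file headers. No source used here says how reads were divided between similar sequences.

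After rounding, expected counts went into edgeR 4.0.16 (R 4.3.3), with its quasi-likelihood test, TMM and no covariate. filterByExpr (minimum count 10, minimum total 15) kept 309 rows, and calls used a Benjamini-Hochberg adjusted p under 0.05. SEs were derived from the F statistic. DESeq2 1.42.0 and limma 3.58.1 served as alternatives, and limma tested the arm ratios. Likeness used log2 CPM with a prior count of 2. No libraries were duplicates: chi-square per degree of freedom between any pair was at least 124.9. The scripts were tested on simulated data. The family and the lists were chosen with earlier results of these data known. All 9 family rows are accounted for, and those kept by the filter are named with each library's value. Named beside them are the 5 mature names most correlated with dre-miR-148 and the most abundant row of each list.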

Additional observations from a re-analysis of the deposited data

How the results depend on the processing

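Under the alternatives run, dre-miR-148, ola-miR-148_R+1 and ssa-miR-148a-5p kept a log2 fold change below 0, and the 0 called family rows held except without the count filter, where 1 row, ola-miR-148_R+1, was called; the cause was not tested. Over all rows edgeR called 0, against 4 with DESeq2, 11 without the count filter and 0 to 1 when a library was left out. fru-miR-152 reversed with library totals (0.27), and lay between -0.77 and 0.063 when a library was left out, reversed without fasted replicate 3; ssa-miR-152-5p_L-1 reversed with library totals (0.19), where ssa-miR-148a-5p was -0.092. Summed by mature name, miR-148 had -0.97 and miR-152 -0.19, and summed by seed the 3p rows had -0.87 and the 5p rows -0.63, none called. Leaving out a library moved dre-miR-148 between -1.75 and -0.62 and the family's difference in share between -2.06 and 0.02 percentage points, and gave 0 to 5 called arm ratios. The arm ratio of miR-148 ranged from 0.44 to 1.11 and that of miR-152 from -0.36 to 0.60 in these fits, the -0.19 without control replicate 6 among them.

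Both groups hold a replicate 3 and a replicate 4, and the titles do not say whether a shared number marks a pair. Deviations from the group means correlated at 0.44 for replicate 3 and -0.04 for replicate 4. Between libraries of unlike number they ran from -0.49 (fasted replicate 4, control replicate 3) to 0.50 (fasted replicate 4, control replicate 6). These values therefore cannot tell whether the numbers mark pairs. In a fit with replicate number as a block, fasted replicate 5 and control replicate 6 each stand alone in their block. Its fold changes thus come from replicates 3 and 4 alone and leave out 2 libraries that bear on the overlap of the groups. With this block, 0 rows were called, dre-miR-148 had -1.98 and ola-miR-148_R+1 -3.27, and 2 arm ratios were called, neither of the family. The 4 rare family rows are limited by depth.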

Other observations

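Rows outside the naming rule carried a few more reads with names or sequences close to those of the family. The hairpins they come from were not analysed. The predicted row PC-3p-36365_10 of 24 nt is identical to fru-miR-152 over its first 21 bases and held 1.5, 0 and 3.5 counts in fasted replicates 3, 4 and 5 and 4, 0.5 and 4 counts in control replicates 3, 4 and 6. The row fru-mir-148-p5_2ss17TC23TA, which shares the seed of ssa-miR-148a-5p, held 3 counts in all, with 1 in fasted replicate 3 and the other 2 in replicate 5 of the same group. The other 3 rows named mir-148 or mir-152 held at most 2 counts each over the 6 libraries.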
